A study of Schizosaccharomyces pombe with 384 samples.

Results

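The 7 genes described here encode cytosolic translation elongation factors of the fission yeast Schizosaccharomyces pombe: tef101, tef102 and tef103 for eEF1A, tef5 for a subunit of eEF1B, eft201 and eft202 for eEF2, and tef3 for eEF3. The gene of the gamma subunit of eEF1B, SPAC29A4.02c, is not among the 7 and is described with the cofactors. They were taken by name from the 7259 genes of a deposited expression table, by a rule that uses no measured value but was set with earlier results of these data known, and all 7 passed the floor on low values in wild type and in each strain. The table holds 384 libraries of 3′ mRNA-seq, a method that reads the polyadenylated end of each transcript, from 94 strains that each lack a single gene (4 libraries per strain) and from 8 wild-type libraries. The strains came from the Bioneer haploid knockout library and were grown with wild type in YES, a rich medium, in deep-well plates. The wild-type cells were called wt, wt1 and wt2 in the labels, which do not name their strain. Each knockout is a single strain of that library, and the study calls its 4 libraries biological replicates. The p-values of a strain against wild type therefore measure the spread between libraries within that strain and within wild type. They do not cover independent knockouts of the same gene.

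During elongation, eEF1A bound to GTP brings each aminoacyl-tRNA to the ribosome, and eEF1B exchanges the GDP left on eEF1A for GTP. After the peptide bond has formed, eEF2, which carries the modified histidine diphthamide, moves the tRNAs and the mRNA along the ribosome. Fungi need a further factor, eEF3, an ATPase that acts on the deacylated tRNA in the exit site. Elongation factors are among the most abundant proteins of a growing yeast cell, and their mRNAs are known for being expressed together with those of ribosomal proteins.

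Several properties of the whole series bear on the values below. A library held between 1337656 and 2659644 reads on genes (median 1652486). Of the 8 wild-type libraries, 6 carry a description that calls them a knockout strain, and 2 wild-type libraries from well A2 both bear the replicate number 2, with none from that well bearing number 1. The deposited values had lost their decimal point in 78.8348% of entries and were restored, with a competing position in 2098 of 2787456 values, among them tef101 in 1 library of rpl3602Δ and tef103 in 1 library of rep2Δ. The 94 comparisons share the 8 wild-type libraries, so they are not independent of each other. The targeted gene did not fall below wild type in each strain named here, although the part of a transcript read by a 3′ tag may lie outside the deleted stretch. Over the 94 strains it lay below every wild-type library in 27. It stood at 2.0% of wild type in rps2801Δ, 9.78% in rpl1801Δ and 16.5% in ssz1Δ, below every wild-type library. It stood at 84.8% in the strain labelled rpl3201Δ, 100% in that labelled nde2Δ and 72.4% in that labelled pek1Δ, within or near the wild-type range. In the strains labelled hcr1Δ (158%), SPBC3E7.05cΔ (166%) and res2Δ (551%) the signal of the targeted gene lay above every wild-type library, and directions drawn from these 6 strains rest on their labels. In wild type the mean levels of hcr1, SPBC3E7.05c and res2 were low, at 67.9, 31.1 and 5.46 CPM, respectively.

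The paralogues are nearly identical in their coding sequence, which bears on how far their reads can be told apart. The 3 eEF1A genes each have 1383 coding bases, and differ at 16 bases between tef101 and tef102 (98.84% identity), 19 between tef101 and tef103 (98.63%) and 15 between tef102 and tef103 (98.92%). The eEF2 genes eft201 and eft202 each have 2529 coding bases and differ at 11 of them (99.57% identity). The ends of the coding sequences, closest to the part that 3′ reads cover, are given as in RefSeq (assembly ASM294v3), written 5′ to 3′ along each gene, and capitals mark the bases that differ between paralogues, 7 of the last 60 among the eEF1A genes and 2 of the last 60 between the eEF2 genes.
tef101, III:268097-268156, minus strand: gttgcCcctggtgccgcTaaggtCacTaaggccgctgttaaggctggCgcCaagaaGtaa
tef102, I:4096525-4096584, plus strand: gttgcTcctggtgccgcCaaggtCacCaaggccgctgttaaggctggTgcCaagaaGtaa
tef103, II:626106-626165, minus strand: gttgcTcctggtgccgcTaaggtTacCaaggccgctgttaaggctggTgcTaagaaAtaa
eft201, I:2907701-2907760, minus strand: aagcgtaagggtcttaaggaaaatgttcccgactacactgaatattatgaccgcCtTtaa
eft202, III:539795-539854, plus strand: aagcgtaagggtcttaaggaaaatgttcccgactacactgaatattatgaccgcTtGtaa

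A 75-base read taken from the coding end of one eEF2 gene would often match the other. Of the windows of 75 bases in the last 300 bases of the annotated transcript, 139 of 226 were shared between eft201 and eft202, whereas tef101 shared 14 with tef102 and 11 with tef103. tef102, whose annotated transcript ends at the stop codon, shared 81 with tef101 and 30 with tef103. How the authors treated reads that match several places is not given in the sources used here, so the split between paralogues, and that of eft201 and eft202 in particular, is uncertain. Sums over each family do not depend on that split as long as such reads were counted at all.

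The promoters were shown for the HomolD box, an element of fission yeast ribosomal protein gene promoters, since the elongation factor mRNAs moved together across strains. The letters CAGTCACA or their reverse complement TGTGACTG were present in the window from 250 bases before to 50 after the annotated start in 4 of 7 elongation factor genes and in 137 of 5112 promoters (2.68%) of the reference. Capitals mark the match, and its first base lies 44, 56, 59 and 139 bases before the start of tef101, tef102, tef103 and tef3, respectively.
tef101, III:269542-269571, minus strand: cttgtggagagCAGTCACAaatcacttagt
tef102, I:4095065-4095094, plus strand: gccacgccagaTGTGACTGctttccaacga
tef103, II:627563-627592, minus strand: aacgaacgttaTGTGACTGctttttttgcg
tef3, III:1685495-1685524, plus strand: aagaaaaagaaCAGTCACAttgtaaatatg
A match is a description of the sequence and not of a bound site, and the windows of eft201, eft202 and tef5 did not hold the HomolD letters.

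In wild type the eEF1A mRNAs tef103 and tef101 were the most abundant of the 7 and the eEF2 mRNAs the least. Levels are given in CPM, the reads of a gene scaled to a common library size, which were not divided by gene length because a 3′ library yields reads from the end of each transcript. tef103 (SPBC839.15c, ASM294v2 II:626004-627556) was the most abundant at 6885 ± 1682 CPM (SD, n = 8), with 5257 at the lowest, 6463 at the median and 9546 at the highest library. tef101 (SPCC794.09c, III:267955-269523) had 6293 ± 1480 CPM, from 4655 through a median of 5971 to 8599. The third eEF1A gene, tef102 (SPAC23A1.10, I:4095134-4096584), reached 3203 ± 667 CPM, from 2595 through 3003 to 4284. Thus tef103, tef101 and tef102 gave 42%, 38.4% and 19.7% of the eEF1A signal, with SDs of 1.14, 1.3 and 0.616 percentage points over the 8 libraries. The annotated transcript of tef102 ends at its stop codon, whereas those of tef101 and tef103 extend 142 and 102 bases past theirs. Reads of tef102 beyond that end would not be counted, so its level and share may be too low, which was not tested.

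The eEF3 mRNA lay between those of tef101 and tef102, and the exchange factor between tef102 and the eEF2 genes. tef3 (SPCC417.08, III:1685599-1688951) had 4328 ± 924 CPM (SD, n = 8), from 3465 through 4100 to 5765. tef5 (SPCC1450.04, III:1732730-1733847), the only gene of the group with 2 exons, had 2722 ± 338 CPM, from 2326 through 2801 to 3134. For eEF2, eft202 (SPCP31B10.07, III:537298-539922) had 1546 ± 323 CPM, from 1207 through 1441 to 2122. eft201 (SPAC513.01c, I:2907643-2910274) was the least abundant at 1298 ± 100 CPM, from 1179 through 1298 to 1447. The restored values correspond to between 1573 reads (eft201) and 15350 reads (tef103) per gene and wild-type library, so counting error was small beside the spread between libraries.

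In this order, the wild-type ranges of neighbouring genes were separate only for tef5 against eft202. Within libraries the order was steadier: tef103 exceeded tef101 in 7 of 8 wild-type libraries, tef101 exceeded tef3 in 8, tef3 exceeded tef102 in 8, tef102 exceeded tef5 in 7, tef5 exceeded eft202 in 8 and eft202 exceeded eft201 in 8. In the knockout libraries tef102 exceeded tef5 in 170 of 376, whereas tef103 still exceeded tef101 in 344. Summed, the 7 mRNAs had 26277 ± 5372 CPM in wild type (SD, n = 8), between 20933 and 34897 in single libraries. Over the strain means the sum ran from 8771 CPM in the strain labelled rpl3201Δ through a median of 20453 to 29946 CPM in pmp1Δ.

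**Figure D1:**
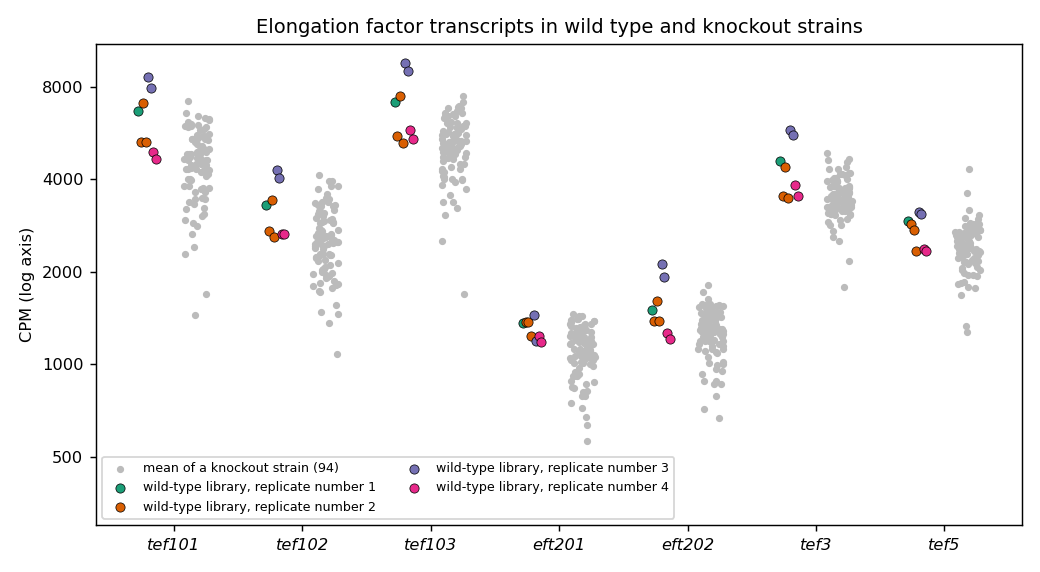
Level of each elongation factor mRNA in CPM on a log axis; coloured points are the 8 wild-type libraries by replicate number and grey points the means of the 94 knockout strains. The 2 wild-type libraries of number 3 are the highest for tef101, tef102, tef103, eft202, tef3 and tef5, and the cloud of strain means lies lower than most wild-type libraries.

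Across the strain means each gene varied by a factor of 2 or more. tef101 ran from 1444 CPM (rpl3201Δ) through 4619 at the median to 7171 (pmp1Δ), tef102 from 1075 through 2500 to 4113, and tef103 from 1697 through 5196 to 7441, with the same strains at both ends. tef3 ran from 1785 (rpl3201Δ) through 3441 to 4857 (pmp1Δ). eft202 ran from 667 (rpl1801Δ) through 1295 to 1815 (pmp1Δ), and eft201 from 564 (rpl1801Δ) through 1123 to 1451 (rad25Δ). tef5 had its lowest mean in rpl3201Δ (1270) and its highest, 4300, in rps2801Δ, against a median of 2443. In pmp1Δ, the only strain in which all 7 differences from wild type were above 0, the largest was that of tef102 (+0.35 on the log2 scale) and none was called.

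The elongation factor mRNAs also differed between replicate numbers, in wild type and knockouts alike. Over the 94 strains, the median level at number 3 exceeded that at number 2 by 1.75-fold for tef101, 1.89-fold for tef102, 1.72-fold for tef103 and 1.47-fold for tef3, and by 1.29-fold for eft202, 1.17-fold for tef5 and 1.04-fold for eft201. The distance to wild type therefore depended on the number. For tef101 the median knockout reached 63.2%, 51.9%, 77.7% and 93.7% of the mean wild-type level at numbers 1, 2, 3 and 4. For tef5 the corresponding shares were 82.3%, 88.5%, 91% and 100%. In numbers 1 and 2 the comparison rests on a single wild-type library each, from well A1. The 2 wild-type libraries of well A2 labelled number 2 were left out. Those had 5288 and 5298 CPM of tef101, against 7069 CPM in the library of number 2 that was kept. Numbers 3 and 4 have a wild-type library from each well, so number and well cannot be told apart in this comparison. What the numbers stand for is not stated in the labels.

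**Figure D2:**
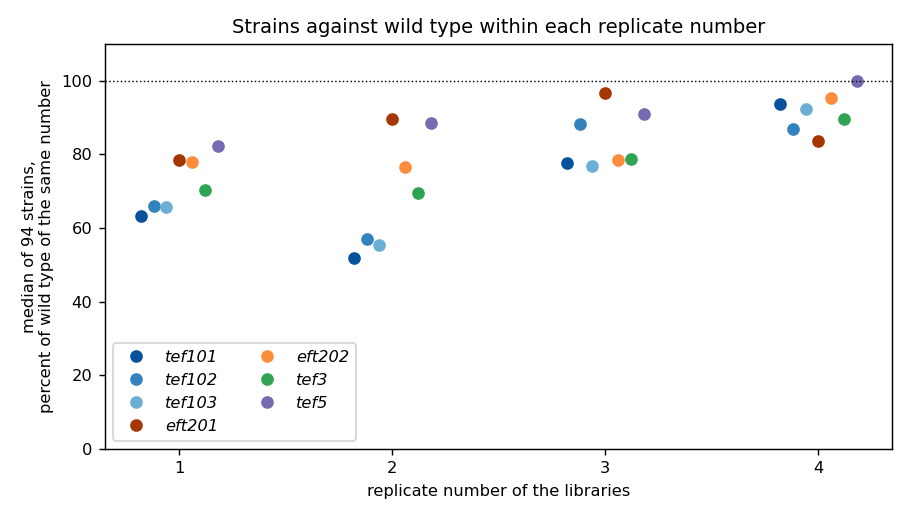
Median level over 94 knockout strains as a percentage of the wild-type level of the same replicate number, for each elongation factor gene. The dotted line marks 100%. The wild-type libraries of well A2 labelled number 2 are left out. The eEF1A genes lie between 51.9% and 65.9% at numbers 1 and 2 and between 76.8% and 93.7% at numbers 3 and 4.

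Which knockouts lowered or raised these mRNAs was asked by comparing each strain with the 8 wild-type libraries. A transcript was called altered in a strain at a log2 difference of at least 0.6 in size and a p of at most 0.005 (limma, fitted across all transcripts of the strain). Of the 658 pairs of gene and strain, 94 (14.3%) were called lower and 1 (0.152%) higher, against 1.47% lower and 2.12% higher over all transcripts and strains. Among transcripts of at least 1000 CPM in wild type, to which all 7 belong, 8.49% of pairs were called lower. With a Benjamini-Hochberg adjusted p below 0.05 in place of the unadjusted p, 74 pairs were lower, against 1.19% over all transcripts. With replicate number as a block, 97 were lower, 82 of them in both fits. In 104 pairs (15.8%) all 4 knockout libraries lay below every wild-type library, which was so for 1.75% of all pairs. The direction was shared even where no call was made: the median difference was −0.32 against 0.006 over all transcripts. The difference was below 0 in 89 of 94 strains for tef101, 80 for tef102, 91 for tef103, 75 for eft201, 86 for eft202, 88 for tef3 and 75 for tef5. In 58 strains it was below 0 for all 7. All these differences subtract the same 8 wild-type libraries, and no share of all transcripts below 0 is given here for comparison. The median difference was −0.21 without both wild-type libraries of number 3. It was −0.23 with those of well A2 alone and −0.40 with those of well A1 alone. The count of lower calls depended on the scaling and on the wild-type libraries. It was 49 (7.45%, against 0.586% of all transcripts) when CPM was recomputed on the reads on genes, where 4.52% of all transcripts were called higher. It was 79 (12%, against 1.0%) with the wild-type libraries of well A1 alone and 36 (5.47%, against 0.815%) with those of well A2 alone. It was 56 (8.51%, against 1.42%) without both wild-type libraries of number 3 and 18 (2.74%, against 0.928%) with the 2 wild-type libraries described as the reference.

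By gene, lower calls at p of at most 0.005 were most frequent for eEF1A. tef101 was lower in 22 strains, tef102 in 20 and tef103 in 16 of 94, with median differences of −0.49, −0.41 and −0.42. eft202 was lower in 13 strains and eft201 in 12 (medians −0.24 and −0.22), tef5 in 6 and tef3 in 5 (medians −0.16 and −0.34). No gene but tef5 was called higher in any strain. The order of the genes depended on the criterion. At adjusted p below 0.05, tef101 was lower in 17 strains, tef102 in 13, tef103 in 10, and eft201 and eft202 in 12 each. All 4 libraries lay below every wild-type library most often for eft201, in 27.7% of strains. That share was 20.2% for tef101, 19.1% for tef102 and 16% for tef103, against 1.75% of all pairs. For comparison, 38 of the 5021 transcripts tested in every strain were called lower in 22 strains or more, the median transcript in 0 and the transcript with the most, eno101, in 55. At least as many lower strains as the gene itself were reached by 49 transcripts for tef102 and 96 for tef103. For eft202, eft201, tef5 and tef3 it was 152, 172, 379 and 454 transcripts. The shares of tef5 (6.38%) and tef3 (5.32%) lay below the 8.49% of transcripts of at least 1000 CPM. Leaving out the knockout libraries of a single replicate number moved the count of tef101 between 14 (without number 1) and 31 (without number 3), that of tef102 between 12 (without number 2) and 30 (without number 3), and that of tef103 between 8 (without number 2) and 21 (without number 3). The count of eft202 fell to 8 without number 2, that of tef3 rose to 9 without number 3, and that of tef5 fell to 3 without the wild-type library of number 1.

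**Figure D3:**
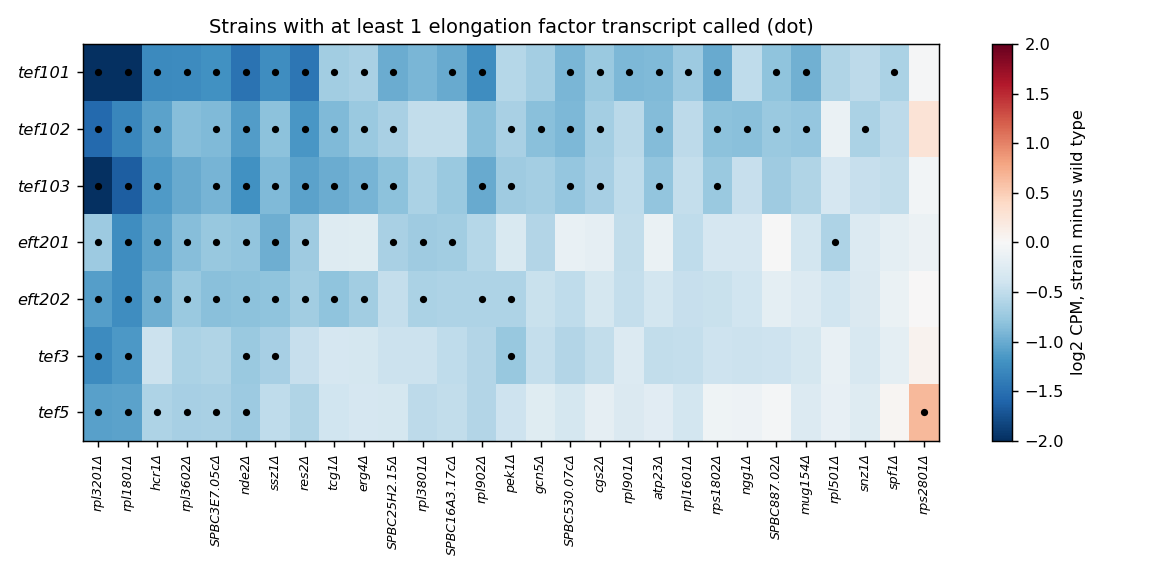
Difference from wild type (log2 CPM, strain minus wild type, colour) of the 7 elongation factor mRNAs (vertical axis) in the strains with at least 1 of them called (horizontal axis); a dot marks a call. Strains at the left have lower levels of all 7 mRNAs, and the single rise, tef5 in rps2801Δ, stands at the right.

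For the eEF1A genes the largest falls were in strains labelled as lacking proteins of the large ribosomal subunit. In rpl3201Δ tef101 had 1220, 1311, 1475 and 1771 CPM, a difference of −2.10 ± 0.18 (log2, SE, limma, Benjamini-Hochberg adjusted p = 1.13e-05). All 4 libraries lay far below the lowest wild-type library of tef101. tef103 was at 1448, 1552, 1755 and 2033 CPM there (−2.0 ± 0.18, adjusted p = 1.38e-05), and tef102 between 914 and 1155 CPM in its 4 libraries (−1.56 ± 0.16, adjusted p = 2.6e-05). The 3 genes thus fell together, and the 4 libraries were close to each other.

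In rpl1801Δ, which lacks another protein of the large subunit, the libraries spread more widely. tef101 had 892, 1691, 854 and 3352 CPM (−2.09 ± 0.32, adjusted p = 0.000376), and tef103 had 1251, 2459, 1384 and 4973 CPM (−1.65 ± 0.32, adjusted p = 0.00163). tef102 had 969, 1293, 914 and 2283 CPM (−1.31 ± 0.24, adjusted p = 0.00108). The library of number 4 was the highest for all 3 genes, yet each of the 4 lay below every wild-type library. The genes did not fall by the same factor: tef101 made up 28.7%, 31.1%, 27.1% and 31.6% of the eEF1A counts in rpl1801Δ, below its wild-type range of 36.6% to 40.3%, and the mean share of tef102 was 26.3%, above its wild-type range of 19% to 20.8%.

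The third-largest falls of the eEF1A genes were in strains of other classes. In the strain labelled nde2Δ, after a mitochondrial NADH dehydrogenase, tef101 had 2753, 1525, 1870 and 2973 CPM (−1.48 ± 0.22, adjusted p = 0.00121) and tef103 had 3840, 1897, 2344 and 4141 CPM (−1.21 ± 0.24, adjusted p = 0.00623). All 8 of these values lay below the wild-type ranges, and the library of number 2 was the lowest for both. In the strain labelled res2Δ, after a subunit of the MBF transcription factor, tef102 had 935, 1240, 1954 and 1712 CPM (−1.16 ± 0.21, adjusted p = 0.0031), also below every wild-type library.

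The eEF1B gene tef5 showed both directions. Its falls were largest in rpl3201Δ, with 1138, 1282, 1340 and 1322 CPM (−1.09 ± 0.12, adjusted p = 3.97e-05), and in rpl1801Δ, with 1006, 1413, 1015 and 1876 CPM (−1.08 ± 0.18, adjusted p = 0.000609). In the strain labelled nde2Δ it was at 2152, 1275, 1448 and 1830 CPM (−0.72 ± 0.16, adjusted p = 0.0116), a call that was lost without the library of number 2, where the difference was −0.60. In each of these strains no library of tef5 reached the wild-type range. The only rise of the 658 pairs was that of tef5 in rps2801Δ, which lacks a protein of the small subunit: 3385, 4375, 5405 and 4036 CPM, all above the highest wild-type library (+0.65 ± 0.15, adjusted p = 0.0382). Without the library of number 3 the difference was +0.53 and below the threshold of 0.6. The other 6 elongation factor mRNAs stayed between −0.12 and +0.27 in rps2801Δ, and none was called.

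The eEF2 genes fell most in rpl1801Δ. eft201 had 488, 535, 443 and 793 CPM (−1.24 ± 0.15, adjusted p = 9.73e-05) and eft202 had 487, 761, 497 and 921 CPM (−1.24 ± 0.21, adjusted p = 0.000646), so that the 2 paralogues moved by a similar amount. The next-largest falls of eft201 were in the strain labelled hcr1Δ, after a subunit of the initiation factor eIF3, at 541, 777, 660 and 549 CPM (−1.05 ± 0.13, adjusted p = 0.000524), and in ssz1Δ, which lacks an Hsp70 of the ribosome-associated complex, at 797, 802, 557 and 531 CPM (−0.97 ± 0.14, adjusted p = 0.000545). For eft202 they were in rpl3201Δ, at 632, 728, 732 and 760 CPM (−1.10 ± 0.15, adjusted p = 0.000458), and in hcr1Δ, at 611, 894, 912 and 722 CPM (−0.97 ± 0.18, adjusted p = 0.00449). No library of either gene reached the wild-type range in these strains.

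The eEF3 gene tef3 was called in 5 strains. In rpl3201Δ it had 1666, 1746, 1875 and 1854 CPM (−1.25 ± 0.16, adjusted p = 0.000145), and in the strain labelled pek1Δ, after a MAP kinase kinase, it had 2303, 2274, 2820 and 2666 CPM (−0.76 ± 0.17, adjusted p = 0.0285). In both strains the 4 libraries were close together and below the lowest wild-type value. In rpl1801Δ, by contrast, tef3 had 1053, 3030, 1251 and 3341 CPM (−1.15 ± 0.29, adjusted p = 0.0085), with libraries 1 and 3 far below libraries 2 and 4. The call in rpl1801Δ was lost with replicate number as a block, where p no longer met the threshold (−1.23 ± 0.34), and when library 1 or 3 was left out, the difference being −0.87 without library 1.

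Calls on several of these genes often fell in the same strain. At least 1 was lower in 28 strains, none was called in 65, and 4 or more were lower in 12 (11 with the replicate block, 9 in both fits). All 7 were lower in rpl3201Δ, rpl1801Δ and nde2Δ, and 6 were lower in hcr1Δ, SPBC3E7.05cΔ and ssz1Δ. The background of lower calls in these strains was 4.58%, 9.66%, 3.62%, 4.59%, 3.08% and 6.26% of the transcripts tested, respectively. With the block, 6 were lower in rpl1801Δ, 5 in hcr1Δ and 3 in SPBC3E7.05cΔ, and the counts of the other 3 strains did not change. Of the 12 strains, 3 are labelled as lacking a ribosomal protein gene (rpl3201Δ, rpl1801Δ and rpl3602Δ). The remaining strains were res2Δ with 5 lower and tcg1Δ, erg4Δ, SPBC25H2.15Δ and pek1Δ with 4 each. These 12 strains had from 204 to 1190 altered transcripts of all kinds, with a median of 424 against 122 over the 94 strains. Of the 36 strains with more than 204 altered transcripts, 17 had no lower call on the 7 genes. A strain without a call could still have lower levels. In mcl1Δ, with 482 altered transcripts and no call, all 7 differences were below 0 (from −0.34 for tef103 to −0.54 for tef101). There the libraries of eft201 (−0.50 ± 0.11) and tef5 (−0.48 ± 0.13) lay below every wild-type library. In others of these 17 strains the median difference of the 7 genes was near 0. It was +0.02 in moe1Δ, with 398 altered transcripts, and −0.06 in amo1Δ, with 259.

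In the strains labelled nde2Δ and hcr1Δ the remaining genes followed those above. In nde2Δ tef102 was at 1751, 1113, 1233 and 1824 CPM (−1.12 ± 0.19), eft201 between 676 and 807 (−0.79 ± 0.11), eft202 at 952, 759, 872 and 868 (−0.82 ± 0.16) and tef3 at 3004, 1973, 2518 and 2841 (−0.74 ± 0.18), with adjusted p from 0.000826 (eft201) to 0.0195 (tef3, whose call was lost without library 2). All of these libraries lay below wild type. In hcr1Δ tef101 was at 1498, 2833, 2941 and 3332 CPM (−1.28 ± 0.23), tef102 at 882, 1716, 2022 and 1610 (−1.08 ± 0.22), tef103 at 1735, 3558, 3895 and 3708 (−1.13 ± 0.24) and tef5 at 1183, 2257, 2032 and 1796 (−0.61 ± 0.17), with adjusted p from 0.00408 (tef101) to 0.0376 (tef5). Library 1 was the lowest for each of these 4 genes, and the call on tef5 was lost with the block (−0.63 ± 0.17) and in 7 of 12 omissions of a single library, the smallest difference being −0.42 without library 1. tef3 was not called in hcr1Δ, at 2104, 3845, 3889 and 3121 CPM (−0.43 ± 0.20, adjusted p = 0.193).

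In SPBC3E7.05cΔ and ssz1Δ single libraries decided part of the calls. In the strain labelled SPBC3E7.05cΔ tef101 was at 3677, 2589, 1244 and 4258 CPM (−1.21 ± 0.29, adjusted p = 0.0155), and library 3 was the lowest for each of the 7 genes. tef102 (−0.89), tef103 (−0.93) and tef5 (−0.64) were called as well, but without library 3 their differences were −0.60, −0.61 and −0.43 and the calls were lost, as they were in 6 of 12 omissions of a single library for each gene. eft201 (−0.76) likewise lost its call without library 3 (−0.55), whereas tef101 (−0.84) and eft202 (−0.68) kept theirs. With the block the differences were somewhat larger and so were their errors: tef101 (−1.32 ± 0.36), tef102 (−1.0 ± 0.31), tef103 (−1.05 ± 0.33) and tef5 (−0.70 ± 0.21) were then not called, whereas tef3 (−0.69 ± 0.18) was. In ssz1Δ the libraries of numbers 1 and 2 lay above those of numbers 3 and 4 for each gene. tef101 had 4481, 3601, 1999 and 1409 CPM there (−1.24 ± 0.28, adjusted p = 0.00796), tef3 had 2948, 3119, 2506 and 2285 CPM (−0.66 ± 0.17, adjusted p = 0.0159), and eft202 had 1018, 1073, 815 and 629 CPM (−0.81 ± 0.19, adjusted p = 0.00856). tef102 (3078, 2048, 1417 and 1128 CPM) and tef103 (5613, 5052, 2788 and 2212 CPM) overlapped with wild type at number 1. Leaving out a single library ended the call on tef102 in 10 of 12 cases and that on tef103 in 7. Both were lost without library 4, where the differences were −0.60 and −0.65, and that on tef3 was lost without library 3 or 4 or a wild-type library of number 3 (well A1). tef5 was not called in ssz1Δ (−0.51 ± 0.16, adjusted p = 0.0399).

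**Figure D4:**
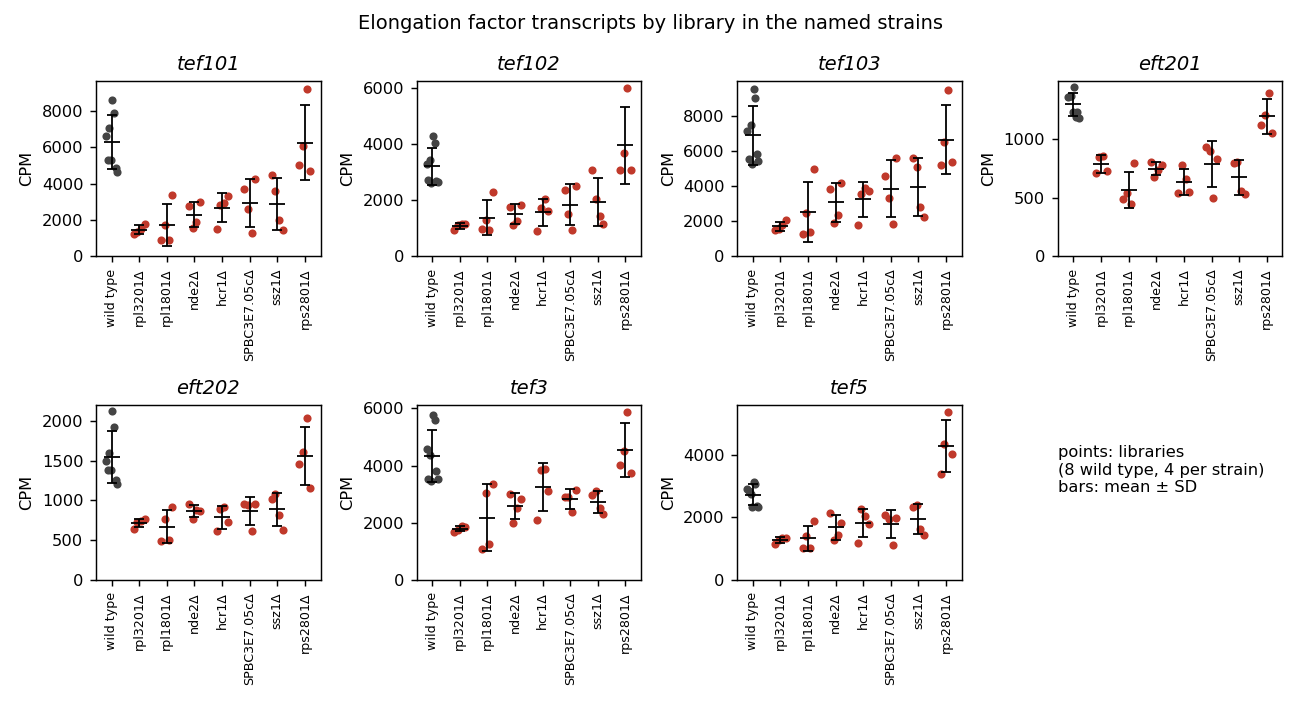
CPM of each elongation factor mRNA (linear axis from 0) in the 8 wild-type libraries and the 4 libraries of each named strain; bars are mean ± SD. The libraries of rpl3201Δ lie together below wild type for each gene, those of rpl1801Δ and ssz1Δ are spread, and tef5 in rps2801Δ lies above wild type.

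How the CPM values were scaled bore on these falls. The authors' CPM rest on a scaled library size, and the ratio of that size to the reads on genes ran from 0.818 to 1.058 in wild type (mean 0.922) and from 0.853 to 1.283 over the strain means (median 1.0). In the 6 strains with at least 6 genes lower it was 1.094 to 1.283. On reads on genes, the median difference of the 7 genes was −0.77 in rpl3201Δ, −0.78 in rpl1801Δ, −0.49 in nde2Δ, −0.66 in hcr1Δ, −0.55 in SPBC3E7.05cΔ and −0.57 in ssz1Δ, in place of −1.25, −1.24, −0.82, −1.05, −0.84 and −0.82. Over all 94 strains together, that base moved the median of all transcripts from 0.006 to 0.142. The median of the 7 genes relative to all transcripts was −0.32 on either base. A change of base scales every gene of a library by the same factor. Within each of the 6 strains the other transcripts therefore shifted upward together with the 7 genes. Across the 94 strains the scaling ratio and the median difference of the 7 genes had a Pearson correlation of −0.827 (−0.574 on reads on genes), given as a description, since both come from the same libraries.

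Ribosomal protein genes are the largest class of deleted genes in the panel, so the 19 strains labelled as lacking one were compared with the 75 others, with a strain as the unit and wild type left out. The targeted gene lay below every wild-type library in 14 of the 19. eft201 was lower in the ribosomal protein deletions by 0.24 ± 0.07 on the log2 scale (SE, limma, Benjamini-Hochberg adjusted p = 0.00469), with median levels of 927 and 1167 CPM. tef101 differed by −0.28 ± 0.10 (adjusted p = 0.024 with medians of 3811 and 4644 CPM), eft202 by −0.16 ± 0.07 (adjusted p = 0.042, 1149 and 1301 CPM) and tef5 by −0.16 ± 0.07 (adjusted p = 0.0451, 2335 and 2509 CPM). The ranges of the strains overlapped for each gene. tef103 (−0.16 ± 0.09, adjusted p = 0.126), tef3 (−0.11 ± 0.06, adjusted p = 0.132) and tef102 (−0.06 ± 0.09, adjusted p = 0.613) were not called. Thus 4 of 7 genes were lower, where 20.6% of 5021 transcripts were lower and 42.3% were called in either direction. The calls on eft202 and tef5 were lost with CPM on the reads on genes (adjusted p = 0.0512 and 0.0584) and with a pseudocount of 1 and no floor (0.0563 and 0.0604). Without rpl1801Δ only eft201 was called (−0.19, adjusted p = 0.0218), and the same was so without the strain labelled rpl3201Δ (−0.22, adjusted p = 0.00873). With the 14 strains alone, eft201 (−0.31), tef101 (−0.27), eft202 (−0.19) and tef5 (−0.17) were called. Within the libraries of replicate numbers 1, 2, 3 and 4 alone, 3, 1, 1 and 0 of the 7 genes were called. At least 1 of the 7 genes was called lower in 9 of the 19 ribosomal protein deletions and in 19 of the 75 others, and none was called in 9 of the 19. These counts are not corrected for the lower calls over all transcripts of a strain. That share ran from 0.165% (rpl1602Δ) to 9.66% (rpl1801Δ) in the ribosomal protein deletions. In the others it ran from 0.0548% (rsv2Δ) to 6.26% (ssz1Δ).

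**Figure D5:**
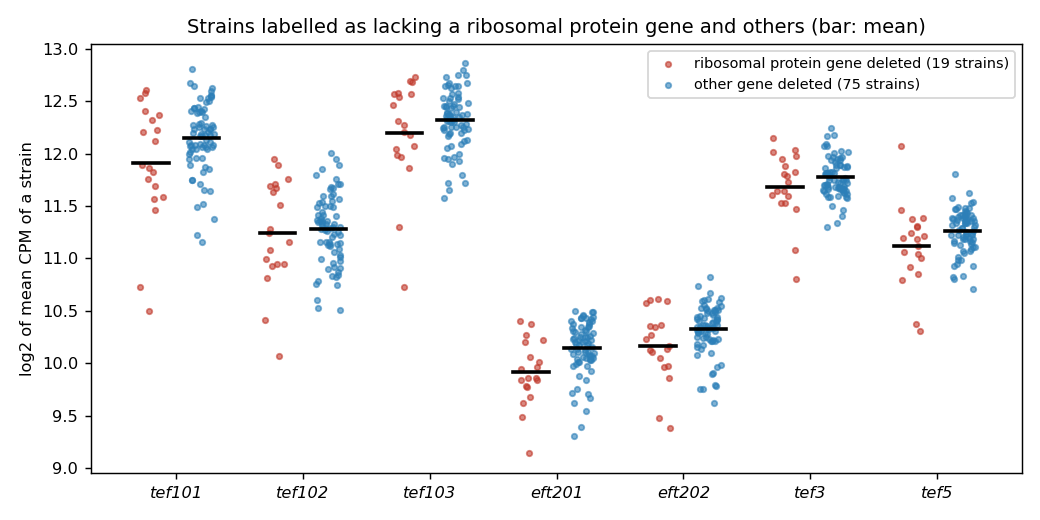
Level of each elongation factor mRNA (log2 of the mean CPM of a strain) in 19 strains labelled as lacking a ribosomal protein gene and 75 other strains; each point is a strain and the bar is the mean of the group. The ranges overlap for each gene, and the bars are furthest apart for tef101 and eft201.

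The strains also separated the paralogues in a few cases. In moe1Δ tef103 made up 29.8%, 29.7%, 31% and 34.6% of the eEF1A counts, all below its wild-type range of 40% to 43.4%, and tef101 took a mean share of 45.3%. tef103 itself had 3821, 3556, 5588 and 4562 CPM in moe1Δ (−0.64 ± 0.20, limma adjusted p = 0.058, not called, and −0.71 with the replicate block, where it was called), whereas tef101 (+0.02) and tef102 (+0.04) were near wild type. tef5 was at +0.40 ± 0.13 there, with no call. Over all strains the mean share of tef103 ran from 31.3% (moe1Δ) to 47% (mug154Δ), that of tef101 from 29.6% (rpl1801Δ) to 45.3% (moe1Δ) and that of tef102 from 16% (ada2Δ) to 26.3% (rpl1801Δ). The strains at these ends were picked for their values and carry no test of the share.

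Deleted neighbours of the elongation factor genes were examined because a cassette can touch the next gene. rpl1602 starts 683 bases beyond tef102, and in rpl1602Δ tef102 had 3183, 2773, 4852 and 2599 CPM (+0.05). SPAC23A1.07 lies 2011 bases from tef102, which had 2765, 2688, 3464 and 2611 CPM in SPAC23A1.07Δ (−0.14). rpl1601 lies 1912 bases from tef103, and in rpl1601Δ tef103 had 4343, 4749, 6852 and 3803 CPM (−0.48 ± 0.20, limma adjusted p = 0.155, not called), with overlap to wild type. Antisense and overlapping genes had little signal beside the elongation factors. efr3, which shares 52 bases with tef101 on the opposite strand, had 120 CPM in wild type, the antisense RNA of tef102 (880 shared bases) had 1.2 CPM and that of tef103 (325 shared bases) was at 0. Whether the authors counted by strand is not given in the sources used here, so reads of these pairs cannot be told apart.

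The genes most like each elongation factor over the 94 strain means are named here as a description, 3 for each. For tef101 they were rpl1602 (Pearson R = 0.948), rpl6 (0.943) and rps2602 (0.938), for tef102 cpc2 (0.869), rpl6 (0.861) and rpl1602 (0.860), and for tef103 rpl6 (0.927), cpc2 (0.923) and rps001 (0.917). cpc2 encodes the RACK1 protein of the small ribosomal subunit. For tef5 they were rpl15 (0.917), rps1901 (0.912) and rps2602 (0.895), and for tef3 cpc2 (0.902), SPAC29A4.02c (0.865), which encodes the gamma subunit of eEF1B, and rpl1602 (0.861). For eft202 they were rpl402 (0.924), rpl301 (0.920) and rps602 (0.919). eft201 differed in its neighbours, with hcs1 (0.90), a hydroxymethylglutaryl-CoA synthase, hxk2 (0.899), a hexokinase, and rpl302 (0.899). The elongation factors correlated with each other from 0.562 (tef102 with eft201) to 0.926 (tef101 with tef103). The points of these correlations share their libraries and scaling, 4525 protein-coding genes were compared, and the median R over them was between −0.03 and 0.01 for each elongation factor.

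Calls on other genes of the elongation pathway were concentrated on few of them. Of 470 pairs of strain and elongation cofactor, 24 (5.11%) were lower and 0 higher, and 23 of the 24 belonged to SPAC29A4.02c, which had 2607 CPM in wild type and about as many lower calls as tef101 (median −0.42, lowest −1.45 in rpl1801Δ), the other 1 to tif51, which encodes eIF5A. elf1, gcn1 and gcn20 were called in 0 strains. The enzymes of diphthamide synthesis on eEF2 gave 12 lower (1.82%) and 3 higher calls in 658 pairs, 8 of the lower calls for dph1. The mitochondrial elongation factors gave 8 lower (2.24%) and 1 higher call in 357 pairs, 7 of the lower calls for tuf1, the mitochondrial EF-Tu. Termination and ribosome rescue factors gave 1 lower call, of hbs1, and 2 higher calls, both of dom34, in 470 pairs. These shares stand beside the background of 1.47% lower over all transcripts and 8.49% over those of at least 1000 CPM. Apart from SPAC29A4.02c and tif51 the genes of these lists had at most 668 CPM in wild type, below the level of each of the 7 elongation factor genes, and the difference between the lists was not tested.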

How the data were processed

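RNA of 94 knockout strains (4 libraries each) and wild type (8 libraries) was sequenced by the authors with a Lexogen 3′ FWD kit (75 cycles, single-end). The submitters' processing notes name STAR (2.6.1b), Subread (1.6.2), SAMtools (1.5) and HTSeq (0.9.0), with the build ASM294v2; which tool counted the reads, and whether by strand, is not given in the sources used here. The deposited table holds the authors' CPM, scaled per library, as other than plain values: 78.8348% of entries had lost the decimal point. It was restored from the decimal digits and the level of the gene in other libraries, which was checked on simulated data; 10.5954% of values had several possible positions, 2098 a competing one and 0 stayed unresolved. The floor of 1.006722 CPM was taken from the study's methods: a gene was kept in a group with 75% of its values above it (6 of 8 in wild type, 3 of 4 in a strain), and 5398 to 5514 transcripts were tested per strain. The fits used log2 CPM, as the study's methods use log-transformed CPM. No count model was used, although whole reads could be recovered from the restored values.

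On log2 CPM, the libraries of a strain and of wild type were fitted with limma 3.58.1 (R 4.3.3, two-sided moderated test, Benjamini-Hochberg adjustment per strain); calls needed 0.6 on the log2 scale and p of at most 0.005. Strain means were compared between 19 ribosomal protein deletions and 75 others at adjusted p below 0.05. Replicate numbers were checked for pairing on 4593 transcripts: the median correlation of deviations was 0.2805 within a number and −0.1186 between numbers, 94.68% of same-number pairs exceeded 0.1, and all 4 did in 77 of 94 strains, so the blocked value is given beside calls it changes. Both A2 wild-type libraries numbered 2 were left out of the block. Named strains were, per gene, up to 3 with the largest falls and 3 with the largest rises among its calls, and up to 6 strains with 4 or more genes called. The moe1Δ, pmp1Δ, mcl1Δ, amo1Δ and neighbour values were chosen after their values were seen. The gene lists and members were chosen with earlier results of these data known. Alternatives changed the floor, pseudocount, scaling, variance prior, wild-type libraries, block and single libraries.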

Additional observations from a re-analysis of the deposited data

Results flagged for a closer look

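In 3 of 45 strain groups of 4 libraries examined, and in 0 of 7 wild-type groups of 8, a library stood apart from the others of its group by Dixon's criterion, which chance alone meets in about 1 of 20 groups. tef103 in hcr1Δ was at 1735 CPM in library 1 and between 3558 and 3895 CPM in the other libraries. eft202 in SPBC3E7.05cΔ was at 606 CPM in library 3 and between 946 and 958 CPM in the others. tef5 in SPBC3E7.05cΔ was at 1110 CPM in library 3 as well, and between 1961 and 2075 CPM in the others.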

How the results depend on the processing

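The 94 lower calls fell to 57 with p adjusted over all strains at once, to 49 with CPM on the reads on genes and to 36 against the wild-type libraries of well A2 only, whereas it was 79 with those of well A1 only. With alternatives chosen after seeing the data they were 56 without both wild-type libraries of number 3 and 18 against the 2 wild-type libraries described as the reference, and 111 with the block and centred libraries. The count was 97 with replicate number as a block and 95 in the same libraries without it. It ran from 63 to 123 when a knockout number was left out and from 73 to 105 when a wild-type library was left out. The 4 genes lower in ribosomal protein deletions were 2 with a pseudocount of 1 and no floor, 2 with CPM on the reads on genes, 1 without rpl1801Δ, 1 without the strain labelled rpl3201Δ (chosen after seeing the data), and 1, 1 and 0 in the libraries of number 2, 3 and 4 alone; in number 2 alone the difference of tef3 reversed to 0.008. Of 1260 values of 45 named pairs under 28 alternatives, 1094 kept direction and side of the threshold, 153 lost the call, 13 gained it and 0 reversed, and 12 of the 45 pairs lost the call in at least 1 omission of a library. The causes of these shifts were not tested. With at least 1573 reads per gene and wild-type library, counting error was small for these mRNAs.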
